A study of Homo sapiens with 14 samples.

Results

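The regions described here carried DRIP-seq peaks in RNH1-treated DNA of Nalm-6 cells and in none of the 4 untreated libraries of the same cells. The peaks of all 8 Nalm-6 libraries on chromosomes 1 to 22 and X were merged wherever they overlapped or touched, which gave 478732 regions. A merged region was chosen when both RNH1-treated libraries of at least 1 genotype had a peak in it and 0 of the 4 untreated libraries did, and 21465 regions (4.48%) passed. The regions were chosen by the presence and absence of the peaks themselves, so the lack of untreated peaks and the presence of RNH1-treated peaks are the rule and not a result. The mirror image of the rule, a peak in both untreated libraries of a genotype and in 0 of the 4 RNH1-treated libraries, held for 90246 regions (18.9%).

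Nalm-6 is a human B cell leukemia line. Isogenic Nalm-6 cells with SF3B1 K700K (WT) or SF3B1 K700E (MT), a change in a core protein of the splicing machinery, were compared. Each genotype had 2 untreated and 2 RNaseH1-treated libraries, 8 in all. DNA from cells that had not been cross-linked was cut with HindIII, EcoRI, BsrGI, XbaI and SspI, a part of it was digested with RNase H, and RNA:DNA hybrids were pulled down with the S9.6 antibody. The labels do not say whether libraries of a group came from separate cultures, so every p-value below measures only the spread between these libraries. The peak lists hold intervals of DNA and no expression values, and the labelled cell type could not be checked against marker genes.

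An R-loop is a hybrid of RNA with its template DNA strand, with the other DNA strand left single. RNase H1 cuts the RNA of such hybrids, so treatment before the pull-down is the usual control of DRIP-seq, and signal that stays after it is commonly read as background. S9.6 is also known to bind double-stranded RNA. Stretches in which 1 strand holds only purines (A and G) and the other only pyrimidines (C and T) are found throughout the human genome, and DNA of this kind is known to form triple helices and, with a purine-rich RNA, unusually stable hybrids.

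The sequences of the most enriched regions show a feature that recurred among the most enriched of them, a long run of purines or of pyrimidines. The first 3 lines give the regions ranked 2, 3 and 4 by enrichment in all 4 RNH1-treated libraries, on the plus strand of GRCh38. Up to 300 bases around the summit are printed, and capitals mark the longest unbroken run of purines or of pyrimidines of the region, as far as it lies in the printed window.
chr13:59581179-59581478: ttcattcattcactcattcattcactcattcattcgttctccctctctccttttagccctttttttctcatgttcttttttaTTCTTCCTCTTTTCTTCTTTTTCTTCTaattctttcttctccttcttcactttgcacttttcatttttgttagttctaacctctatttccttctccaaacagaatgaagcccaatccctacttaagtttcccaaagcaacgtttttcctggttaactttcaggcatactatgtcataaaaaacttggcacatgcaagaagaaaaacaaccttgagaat
chr9:8421186-8421485: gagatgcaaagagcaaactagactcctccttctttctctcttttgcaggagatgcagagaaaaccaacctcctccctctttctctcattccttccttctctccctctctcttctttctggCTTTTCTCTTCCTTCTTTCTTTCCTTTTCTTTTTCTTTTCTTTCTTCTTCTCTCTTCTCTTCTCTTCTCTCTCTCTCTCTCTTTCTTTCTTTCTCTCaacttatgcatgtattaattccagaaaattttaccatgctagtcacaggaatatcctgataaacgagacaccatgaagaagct
chr5:28277781-28278080: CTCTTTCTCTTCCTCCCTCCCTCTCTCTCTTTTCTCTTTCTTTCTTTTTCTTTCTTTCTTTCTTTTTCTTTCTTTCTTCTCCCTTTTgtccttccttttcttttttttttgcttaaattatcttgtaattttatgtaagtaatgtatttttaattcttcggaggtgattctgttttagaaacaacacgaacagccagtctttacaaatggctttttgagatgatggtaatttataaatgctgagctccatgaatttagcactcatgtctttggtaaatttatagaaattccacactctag

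The next 2 lines are the 2 most enriched regions with peaks in both MT and 0 WT RNH1-treated libraries, printed the same way.
chr16:79122452-79122726: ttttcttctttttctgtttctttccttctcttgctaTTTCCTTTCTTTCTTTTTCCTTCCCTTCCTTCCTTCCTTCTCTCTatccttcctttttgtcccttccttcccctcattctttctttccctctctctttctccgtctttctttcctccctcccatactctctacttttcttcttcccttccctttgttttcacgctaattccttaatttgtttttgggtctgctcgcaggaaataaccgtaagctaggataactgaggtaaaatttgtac
chr16:58051249-58051548: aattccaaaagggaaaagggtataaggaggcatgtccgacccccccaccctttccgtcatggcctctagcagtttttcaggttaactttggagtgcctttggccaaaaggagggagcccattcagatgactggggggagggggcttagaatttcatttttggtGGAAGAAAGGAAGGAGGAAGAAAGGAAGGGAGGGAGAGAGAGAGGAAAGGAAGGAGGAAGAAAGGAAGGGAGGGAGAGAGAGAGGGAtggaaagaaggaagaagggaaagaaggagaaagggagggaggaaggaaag

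The last 2 lines are the 2 most enriched regions with peaks in both WT and 0 MT RNH1-treated libraries.
chr2:81116335-81116634: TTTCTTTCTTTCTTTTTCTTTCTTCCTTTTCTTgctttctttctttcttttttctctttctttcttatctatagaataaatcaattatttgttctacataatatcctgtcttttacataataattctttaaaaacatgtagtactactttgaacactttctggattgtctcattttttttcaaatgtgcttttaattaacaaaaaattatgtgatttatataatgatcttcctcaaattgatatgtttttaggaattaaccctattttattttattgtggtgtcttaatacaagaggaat
chr4:62281045-62281344: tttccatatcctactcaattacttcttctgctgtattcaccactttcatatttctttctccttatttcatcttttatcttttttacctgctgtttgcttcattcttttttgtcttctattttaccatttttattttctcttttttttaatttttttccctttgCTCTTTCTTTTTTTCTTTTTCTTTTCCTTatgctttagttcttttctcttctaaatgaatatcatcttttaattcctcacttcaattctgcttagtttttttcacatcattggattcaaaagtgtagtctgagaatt

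The printed windows were far from an even mix of purines and pyrimidines on the plus strand. Pyrimidines made up 69.7%, 72.3% and 69.7% of the windows on chromosomes 13, 9 and 5, and 81.5% of the window on chromosome 16 that starts at 79122452. They made up 26.0% of the window on chromosome 16 that starts at 58051249, where the purines stood on the printed strand. The capitals covered 97 bases of the window on chromosome 9 and 87 bases of that on chromosome 5. Shorter runs without capitals stood beside the marked run in several windows.

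The 8 libraries differed in how many peaks they held. Untreated DNA gave 123582 and 130928 peaks in the 2 WT libraries and 253744 and 295970 in the 2 MT libraries. After RNH1 the WT lists held 34857 and 77391 peaks and the MT lists 201117 and 198158. The background pileup, recovered from fold enrichment and −log10 p as the only measure of depth in the lists, had a median of 3.62 to 5.08 reads in the untreated and 2.17 to 3.38 reads in the RNH1-treated libraries. The ranges did not overlap, so this measure moved with the treatment. It is read at called peaks, and no read totals were used, so it is not a direct measure of sequencing depth. MT libraries had the higher background within each treatment.

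Most of the regions were chosen through MT. Both MT RNH1-treated libraries had a peak in 19905 of them and both WT RNH1-treated libraries in 2404, and 844 regions had a peak in all 4. The most frequent pattern was a peak in both MT and 0 WT libraries, with 16902 regions (78.7%). A further 1846 regions (8.60%) had peaks in both MT libraries and in WT RNH1-treated library 2, and 1164 (5.42%) in both WT and 0 MT libraries. The WT RNH1-treated lists covered 0.564% and 1.41% of the genome, against 3.80% and 3.66% for the MT lists. Without untreated MT library 2 in the rule, 35562 regions passed, and without WT RNH1-treated library 1 or 2 the number chosen through WT was 13574 or 4494. The part of depth in the difference between the genotypes was not tested.

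**Figure D1:**
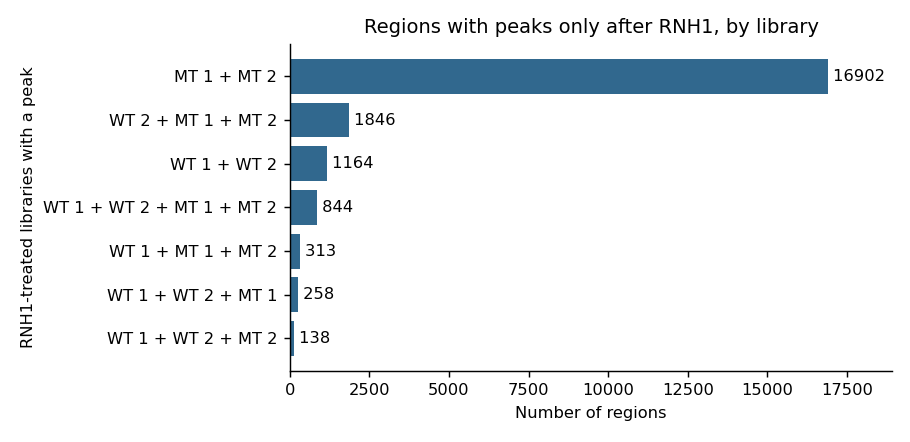
Number of regions (horizontal axis) for each combination of RNH1-treated libraries with a peak (vertical axis; WT or MT and the replicate number). The combination of both MT libraries alone holds 16902 of the 21465 regions, and 844 regions have a peak in all 4 libraries.

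Libraries that the choice did not use gave a measure of recurrence. Of the 19905 regions chosen through MT, 5.81% had a peak in WT RNH1-treated library 1 and 13.5% in WT RNH1-treated library 2. Of the 2404 chosen through WT, 45.8% and 40.8% had a peak in MT RNH1-treated libraries 1 and 2. These shares were 9.60 to 12.1 times the share of the genome that the list covers. For the regions of untreated lists only, looked up in the other genotype's untreated libraries, this ratio was 5.45 to 7.14. The libraries share the cell line and the enzymes, and a region can overlap a list by its width alone, so the ratio is a description. Beside 478732 merged regions, the WT RNH1-treated lists held 34857 and 77391 peaks and the MT lists 201117 and 198158. Set against the merged regions, these peak counts are near the shares above. Recurrence beyond that of merged regions at large is thus not shown. Within a genotype, 49.3% of the regions with a peak in MT RNH1-treated library 1 and with 0 untreated peaks also had one in library 2, and 52.5% the other way round. In WT the shares were 53.5% of library 1 and 17.7% of the larger library 2.

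Peaks in these regions were somewhat lower than the peaks of their lists at large, in each RNH1-treated library. Their median fold enrichment over the local background was 4.85 and 4.61 in the WT RNH1-treated libraries and 4.61 and 4.39 in the MT libraries, against 5.11, 4.71, 4.95 and 4.78 over all peaks of the same lists. The 90th percentile in these regions lay between 6.97 and 7.64. They held 7.85% and 5.53% of all peaks of the WT RNH1-treated lists, and 10.1% and 10.2% of those of the MT lists.

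The rule has a sharp edge. Among 157804 merged regions with a peak in both RNH1-treated libraries of a genotype, 21465 (13.6%) had 0 untreated lists with a peak, 21333 (13.5%) had 1, 66528 (42.2%) had 2, 19044 (12.1%) had 3 and 29434 (18.7%) had all 4. Regions with a peak in exactly 1 untreated list are the ones just outside. Their RNH1-treated peaks had a median fold enrichment of 4.78, against 4.53 in the chosen regions, and the untreated peak that kept them out had a median of 3.74. The lists hold called peaks only, so an untreated signal just under the peak caller's threshold cannot be seen. The nearest untreated peak was 1983 bp away in the median and no more than 1000 bp away in 6143 regions (28.6%). At the other end, 1131 regions (5.27%) were more than 10 kb from any untreated peak.

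Runs of 25 or more purines or pyrimidines were found in 2893 of the 21465 regions. That is 13.5% (95% Wilson interval 13.03 to 13.94%), against 6.19% of all merged regions, 3.41% of the regions seen only in untreated lists and 19.3% of the regions with a peak in all 8 lists. Another 47579 merged regions had RNH1-treated and 0 untreated peaks but no peak in both libraries of a genotype, and 6.16% of them held such a run, near the share of all merged regions. These shares are descriptions with no test, and the intervals cover counting error only. The share was higher the more RNH1-treated lists had a peak, at 10.2% with 2 lists (n = 18066), 26.3% with 3 (n = 2555) and 45.02% with all 4 (n = 844, interval 41.7 to 48.4%). It was 11.6% among regions chosen through MT alone and 19.8% among those chosen through WT alone.

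Longer runs were counted in the same way. Runs of 50 or more were found in 963 regions (4.49%), and in 24.3% of those with peaks in all 4 RNH1-treated lists, against 0.937% of all merged regions and 0.127% of the regions seen only in untreated lists. They were found in 3.98% of the regions of all 8 lists and in 1.37% of the unrepeated RNH1-only regions. The chosen regions were slightly above the regions of all 8 lists here and below them at 25 bases. The Wilson intervals at 50 bases, 4.22 to 4.77% and 3.63 to 4.37%, overlapped. Where a run of 25 or more was present its median length was 37 bases, and 53.5 bases in the regions of all 4 lists. It was 32 bases in the regions of all 8 lists and 28 bases in those of untreated lists only. The longest run was 318 bases in the chosen regions and 344 bases in those of all 8 lists.

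At like width or like base composition, the share with a run was higher in the chosen regions than in all merged regions. It was lower still in the regions of untreated lists only. The regions of all 8 lists, with a median width of 1012 bp, and the unrepeated RNH1-only regions were not split in this way. Their place in the order at like width or base composition was thus not tested. Among regions from 400 to under 600 bp wide, 11.2% of the chosen regions held such a run, against 4.54% of all merged regions and 2.40% of those of untreated lists only. Among regions with a GC content of 40% up to 45%, the shares were 17.3%, 7.73% and 4.07%. The chosen regions had a median width of 491 bp and a median GC content of 40%, against 482 bp and 40.2% for all merged regions.

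The share of regions with a run also moved with enrichment. Regions were ordered by the lowest fold enrichment among the libraries that chose them. Of the 5363 regions with values under 3.51, 8.26% had a run of 25 or more, and of the 2147 with values from 6.45, 28.9% did. In each RNH1-treated library the peaks of regions with a run were the higher ones. Their median fold enrichment was 5.07 against 4.72 in WT library 1, 4.96 against 4.47 in WT library 2, 5.53 against 4.53 in MT library 1 and 5.00 against 4.29 in MT library 2.

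The runs were mostly irregular and held both purines. Read on the purine strand, G made up a median of 38.5% of the run, and 42.1% in the regions of all 4 lists. It made up 33.3% in the regions of all 8 lists and 26.9% in those of untreated lists only. A total of 2236 of the 2893 runs (77.3%) repeated no unit of up to 6 bases at 90% of positions. The dinucleotide repeat GA or its complement TC, in 6 or more copies, was present in 2.50% of the chosen regions and in 8.77% of those with peaks in all 4 lists, against 1.48% of all merged regions and 4.03% of the regions of all 8 lists. Even without regard to runs, purines and pyrimidines were unevenly split between the strands. The median absolute excess of purines over pyrimidines was 14.3% of the bases in the chosen regions, against 10.1% over all merged regions, 13.5% in those of all 8 lists, 13.4% in the unrepeated RNH1-only regions and 7.55% in those of untreated lists only.

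**Figure D2:**
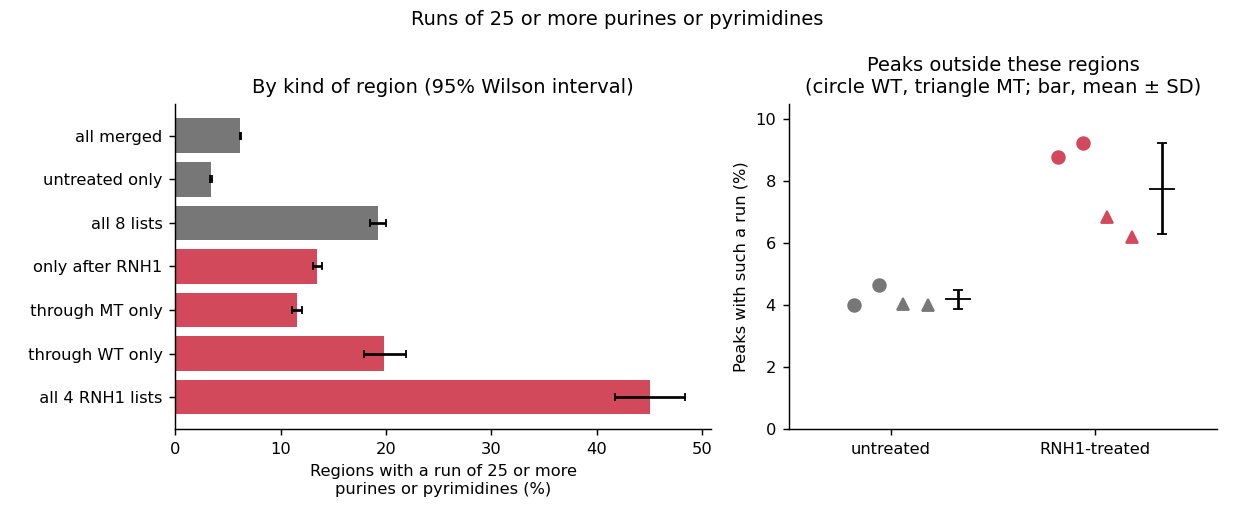
Left, share of regions (horizontal axis, %) with a run of 25 or more purines or pyrimidines by kind of region (vertical axis), with 95% Wilson intervals. Right, share of peaks outside the chosen regions with such a run (vertical axis, %) in each untreated and RNH1-treated library, with circles for WT, triangles for MT and the mean ± SD of 4 libraries beside them. The chosen regions reach 45.02% when all 4 RNH1-treated lists have a peak, and in the right panel the 4 RNH1-treated libraries, from 6.18% to 9.23%, sit above the 4 untreated ones, from 4.02% to 4.65%.

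Whether RNH1-treated peaks held more such runs was tested on the peaks outside the chosen regions. The rule read the presence of these peaks too, and leaving out the chosen regions took peaks from the RNH1-treated lists alone. The 2 untreated WT libraries had 4.02% and 4.65% of these peaks with a run of 25 or more, and the 2 untreated MT libraries 4.05% and 4.02%. After RNH1 the share was 8.78% and 9.23% in the WT libraries and 6.84% and 6.18% in the MT libraries. The groups did not overlap. The mean was 4.19% ± 0.31 (SD, n = 4) in the untreated and 7.76% ± 1.47 (SD, n = 4) in the RNH1-treated libraries, with an exact two-sided permutation p of 0.0286, the smallest that 4 against 4 libraries can give. After Benjamini-Hochberg adjustment over the 9 features tested it was 0.129, which does not pass. Exact sign flips over the 4 pairs of the same genotype and number gave p = 0.125, the smallest that 4 pairs can give. Leaving out untreated WT library 1 or either untreated MT library gave an exact p of 0.0571, and the differences without a library ran from 3.09 to 4.10 percentage points. The feature was added after the runs had been noticed in the same libraries, so the test is not independent of that choice. Background pileup was lower in all 4 RNH1-treated libraries, and its part in this difference was not tested. With an equal number of 30000 peaks of the highest fold enrichment from each library, the difference in the share was 5.25 percentage points, against 3.57 over all the peaks outside the regions. That number is nearly all of the 32119 such peaks of WT RNH1-treated library 1, but a small part of the 295970 of untreated MT library 2. The cut was thus not equally strict in all libraries.

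The other features gave the following on the same peaks. The median absolute purine excess was 10.2% ± 0.8 of the bases in the untreated and 12.7% ± 1.0 in the RNH1-treated libraries (SD, n = 4 each, exact permutation p = 0.0286, adjusted 0.129), and the groups did not overlap. Peaks in promoters, within 3 kb of a start site, made up 15.4% ± 0.4 and 14.4% ± 0.5 (exact p = 0.0857, adjusted 0.257). Restriction sites inside peaks numbered 0.0881 ± 0.0194 and 0.0627 ± 0.0164 per kb (exact p = 0.171, adjusted 0.300). A G-quadruplex pattern was found in 3.53% ± 0.80 and 4.27% ± 0.34 (exact p = 0.200, adjusted 0.300). The GC content, the width and the share of peaks with an edge at a restriction site had exact p-values of 0.829, 0.829 and 0.429. Among the 30000 peaks of the highest fold enrichment in each library, the edge difference was -6.03 percentage points (exact permutation p = 0.114) against -0.61 over all these peaks, and the width difference -34.5 bp (exact permutation p = 0.543) against -10 bp. Fewer features than these were planned, and the runs, the purine excess, the G-quadruplex pattern, the edges and chromosome X were added after values had been seen.

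Many regions had 1 edge at a restriction site. In 64.0% of the chosen regions at least 1 edge was within 20 bp of the middle of a site of the 5 enzymes, and in 62.7% within less than 10 bp, and both edges were in 3.99%. Of the assembled genome 7.70% lies within 20 bp of a site, which is a share for single positions, while each region has 2 edges. The share was 59.2% over all merged regions, 64.5% in regions of untreated lists only, 76.4% in the regions with peaks in all 4 RNH1-treated lists and 76.9% in those with peaks in all 8, and 48.7% in the unrepeated RNH1-only regions. SspI sites, which hold only A and T, made up 34.8% of the chosen regions' edges at sites, HindIII 17.7%, XbaI 17.0%, BsrGI 16.3% and EcoRI 14.1%. Over all merged regions the shares were 30.3%, 24.3%, 12.4%, 19.1% and 13.99%. The regions themselves rarely held a site, since 96.9% had none inside.

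**Figure D3:**
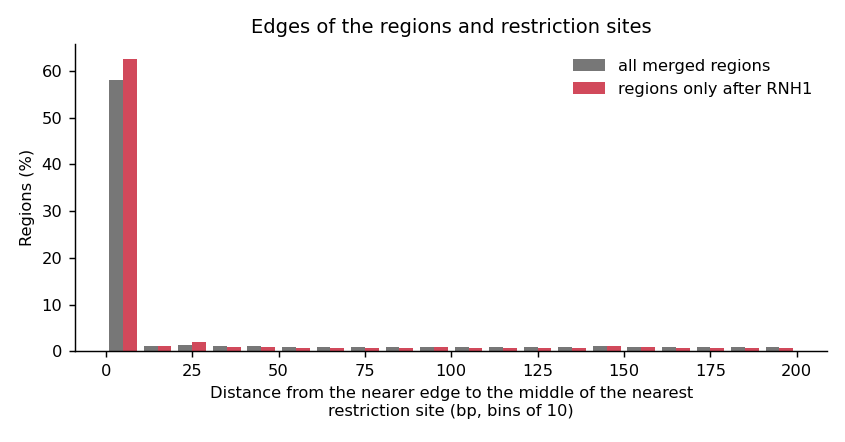
Share of regions (vertical axis, %) by the distance from the nearer edge to the middle of the nearest restriction site (horizontal axis, bins of 10 bp up to 200 bp), for all merged regions and for the regions with peaks only after RNH1. The first bin holds 62.7% of the chosen regions and 58.0% of all merged regions.

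Cut edge, summit and run stood in a common order. In 1713 chosen regions with a run of 25 or more, exactly 1 edge was at a restriction site. There the summit of the highest peak lay 164 bp from that edge in the median and the middle of the run 335 bp, and in 73.9% of these regions the summit was nearer the edge than the run was. Over all merged regions with such a run and edge this share was 63.1%, in those of all 8 lists 65.6%, and in those of untreated lists only 58.1%. The summit fell inside the run in 41 of 2893 regions (1.42%), with a median distance of 182 bp. In the printed windows on chromosomes 9 and 5 the run lies on the lower-coordinate side of the summit and a restriction site closes the region on its other side.

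The strand of the run was also not even with respect to the cut edge. The strand that reads away from the cut was the purine strand of the run in 69.4% of these 1713 regions (interval 67.2 to 71.5%), and in 82.3% of the 226 regions with peaks in all 4 RNH1-treated lists (76.8 to 86.7%). It was 61.3% over all merged regions, 54.9% in regions of untreated lists only and 70.6% in regions of all 8 lists. With respect to genes, the purines of the run were on the sense strand in 400 of 1125 chosen regions with a run inside a protein-coding gene (35.6%, interval 32.8 to 38.4%). That share was 34.1% in the regions of all 4 lists, 38.9% in those of all 8 lists, 40.2% over all merged regions and 44.5% in those of untreated lists only. In each of these sets the pyrimidines were thus more often on the strand that matches the RNA.

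Other sequence patterns were scarcer. A G-quadruplex pattern (4 runs of at least 3 G with 1 to 7 letters between them, on either strand) was present in 6.45% of the chosen regions and in 12.7% of those with peaks in all 4 lists, against 4.63% of all merged regions and 7.78% of the regions of all 8 lists. Stretches of 12 or more A or T were present in 12.8%, against 9.96% of all merged regions and 22.1% of the regions of all 8 lists. The 5-base unit of pericentromeric satellites, GGAAT or its complement in 2 or more copies, was found in 0.457% of the chosen regions and 0.342% of all merged regions. In the regions of all 8 lists it was found in 1.10%. The telomere unit TTAGGG in 2 copies was found in 0.0140% of the chosen regions (3 regions) and 0.0163% of all merged regions (78 regions). The CENP-B box of centromeric alpha-satellite, searched as a sequence pattern with variable positions on both strands, was found in 1 chosen region (0.00466%). It was found in 59 of all merged regions (0.0123%). Counts this small do not allow the shares to be compared. A GC content of 50% or more was found in 5.43% of the chosen regions and 5.81% of all merged regions. It was found in 14.6% of the regions chosen through WT alone, of which 42.5% had a GC content under 35%, and in 4.61% of those chosen through MT alone.

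Most of the regions lay in introns and between genes. By the GENCODE v44 annotation 45.1% were intronic, 39.4% intergenic, 13.1% in promoters, 1.46% in exons, 0.797% in 3′ UTRs and 0.0606% in 5′ UTRs. Over all merged regions the shares were 45.1%, 35.5%, 15.6%, 2.17%, 1.30% and 0.156%. The chosen regions were thus slightly more often intergenic and less often in promoters, exons and UTRs, with no test.

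Chromosome X stood apart from the autosomes in the share of its merged regions that were chosen, but not in their number per length. On the autosomes between 3.98% (chromosome 13) and 5.30% (chromosome 19) of the merged regions were chosen, and on X 1212 of 13802, or 8.78%. Per Mb, X held 7.77 chosen regions, within the autosomal range of 3.70 (chromosome 22) to 8.45 (chromosome 4). The regions of untreated lists only made up 13.9% of the merged regions on X, against 15.9% to 19.5% on the autosomes. Of the regions on X, 1104 were chosen through MT alone, 77 through WT alone and 31 through both. Among peaks outside the chosen regions, those on X made up 1.81%, 1.90%, 2.16% and 2.40% in the untreated libraries, in the order WT 1, WT 2, MT 1 and MT 2, and 2.21%, 2.04%, 2.69% and 2.77% in the RNH1-treated libraries in the same order. The RNH1-treated library had the higher share in each of the 4 pairs of the same genotype and number, but the groups overlapped and the difference did not pass (0.36 percentage points, exact permutation p = 0.171, adjusted 0.300).

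**Figure D4:**
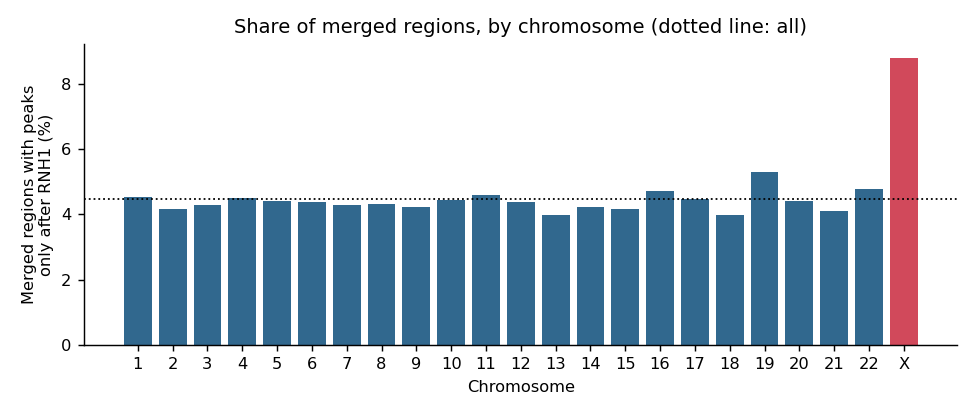
Share of merged regions with peaks only after RNH1 (vertical axis, %) on chromosomes 1 to 22 and X (horizontal axis), with a dotted line at the 4.48% over all chromosomes. The autosomes lie between 3.98% and 5.30%, and X reaches 8.78%. Per Mb, X holds 7.77 such regions, within the range of the autosomes.

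The 10 regions with the highest enrichment in all 4 RNH1-treated libraries had fold enrichments of at least 12.5 in each library, and 7 of the 10 held a run of 25 or more. The second was intergenic on chromosome 13 (59581109 to 59581478), with 19.2 and 19.1 in WT and 19.80 and 19.03 in MT. The third lay in an intron of PTPRD, a receptor tyrosine phosphatase gene, on chromosome 9 (8421159 to 8421485), with 18.3 and 18.7 in WT and 20.55 and 18.96 in MT. The fourth was intergenic on chromosome 5 (28277699 to 28278080), and was the only one of the 10 in which both WT values, 25.8 and 23.9, were above both MT values, 21.3 and 18.0. These values chose the regions and are a description.

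**Figure D5:**
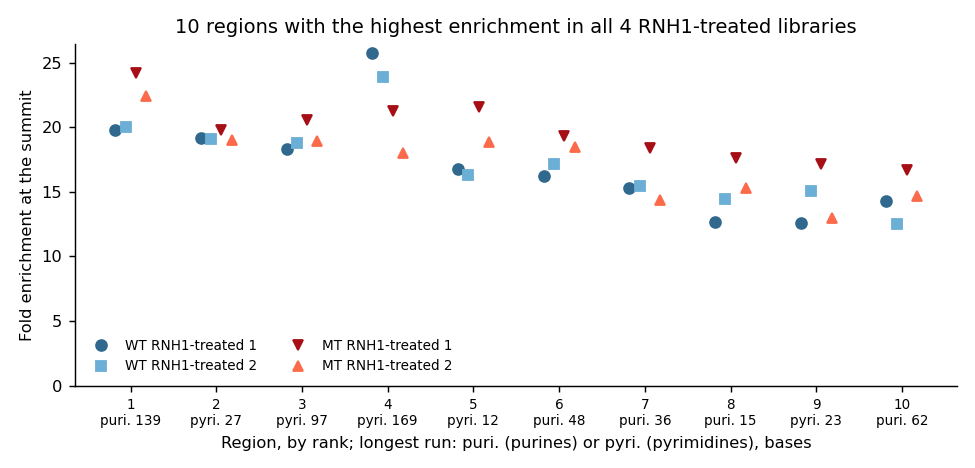
Fold enrichment at the summit (vertical axis) of the 10 regions with the highest enrichment in all 4 RNH1-treated libraries (horizontal axis, by rank, with the length in bases of the longest run of purines or pyrimidines). Each point is 1 library, and no point lies below 12.5.

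The ninth of these regions lay on chromosome 21 (8419899 to 8420612), inside the lncRNA gene ENSG00000280441, and was 185141 bp from the nearest untreated peak. Neither of its edges was within 20 bp of a restriction site, and its longest run was 23 bases. The fifth to the eighth and the tenth were on chromosomes 9, 3, 13, 2 and 18, with longest runs of 12 to 62 bases.

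Of the 10 most enriched regions with peaks in MT libraries alone, 4 held a run of 25 or more, 9 had an edge at a restriction site and 5 were intronic. The first lay in WWOX, a gene of a common fragile site, on chromosome 16 (79122452 to 79122726), with fold enrichments of 21.8 and 21.2. Others lay in introns of CSMD3, LRP1B, GRIK4 and RAPGEF5, and 0.782 kb from the start of CWC27, which encodes a spliceosome protein. Another, inside LRRC4C, was within 3 kb of an annotated transcript start but 1140 kb from the start of LRRC4C itself. Of the 10 most enriched regions with peaks in WT libraries alone, 8 held such a run, 7 had an edge at a restriction site, 7 were intergenic and the other 3 were intronic, in PCDH11X, which has a near-identical copy elsewhere in the genome, GLYATL1 and ADAMTSL1. The first, on chromosome 2 (81116310 to 81116634), had fold enrichments of 24.8 and 24.4.

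By count, very long genes held the most chosen regions. CTNNA3, which encodes an alpha-catenin of cell junctions, and EYS held 22 each, DLG2 and RBFOX1 21 each, DCC, MACROD2 and PTPRD 18 each, and AGBL1, CNTNAP2 and the lncRNA gene ENSG00000285939 17 each. As a share of the merged regions in the gene these counts ran from 3.89% in CNTNAP2 to 8.13% in AGBL1, beside 4.48% of all regions. Per length, among genes of at least 20 kb with at least 3 such regions, the densest was CYP4F11, a cytochrome P450 gene, with 3 of 6 merged regions, followed by IL7R with 3 of 8 and by TRG-AS1, an lncRNA gene in the T cell receptor gamma locus, with 4 of 7. TRG-AS1 and CYP4F11 held 0 regions of untreated lists only. Such genes were ranked on these values, which are a description.

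In IL7R, the receptor of the cytokine that B cell precursors need, 3 regions were chosen, each within 3 kb of an annotated transcript start. The gene itself runs on the plus strand from 35852695 to 35879603, and these regions were not within 3 kb of its own start. The first (chromosome 5, 35856880 to 35857175) had fold enrichments of 3.46 and 4.50 in the MT libraries and 0 WT peaks. The second (35876546 to 35877376) had 3.33 and 2.97 in MT and 4.37 in WT library 2. The third (35877790 to 35878137) had 3.65 and 5.10 in MT. These were low values, below or near the 4.61 and 4.39 that were the medians of MT peaks in the chosen regions, except the 5.10.

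In TRG-AS1 the region with the highest values (chromosome 7, 38369442 to 38369842) had 11.03 and 9.22 in MT and 4.38 in WT library 1, and held a pyrimidine run of 25 bases. The other 3 regions of the gene had values between 2.92 and 5.11. In CYP4F11, 1 region (chromosome 19, 15929668 to 15930745) had a peak in all 4 RNH1-treated libraries, with 4.22 and 4.72 in WT and 4.55 and 4.37 in MT.

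Among 21 B-lineage identity genes 8 held a chosen region, and 20 of their 344 merged regions (5.81%) were chosen, beside 4.48% of all regions, so the values below describe the genes and not the list. EBF1, a transcription factor that sets up the B cell program, held 5, of which 1 at its promoter (chromosome 5, 159097195 to 159097661) had a peak in all 4 RNH1-treated libraries, where the fold enrichment was 3.31 and 3.15 in the WT libraries and 4.07 and 4.45 in the MT libraries. BACH2, a transcriptional repressor of B cells, held 4, with the highest values, 7.45 and 8.46 in MT and 5.22 in WT library 2, in an intron (chromosome 6, 90259477 to 90260355). IKZF1, the Ikaros gene, held a single region, in an intron (chromosome 7, 50342935 to 50343596), with a pyrimidine run of 112 bases. It had 4.57 and 6.30 in WT and 14.3 and 11.3 in MT, the highest values of the list, and both MT libraries were above both WT libraries. PAX5 held 1 region, which had peaks in the WT libraries alone (3.77 and 3.42). MME, POU2AF1 and RAG1 held 2 each, all through MT alone.

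The shares of the other gene lists were below the 4.48% of all regions, except that of the immunoglobulin segments, which rests on 1 region. All 15 common fragile site genes, which are among the longest of the genome, held at least 1, and 174 of their 4096 merged regions (4.25%) were chosen, from 2.10% in FHIT to 9.82% in DMD, which lies on X. Of 26 genes that process R-loops, 3 held a region each (3 of 245 merged regions, 1.22%). These were BLM, a helicase, with 5.40 and 3.86 in the WT libraries alone, BRCA1, of homologous recombination, with 4.73 and 3.38 in MT, and FANCD2, of the Fanconi anemia pathway, with 5.17 and 5.95 in MT. RNASEH1, AQR, DHX9, THOC1 and SERBP1 held 0 of 4, 20, 11, 10 and 3 merged regions, too few for a count of 0 to be a result. A list of 14 loci chosen as sites of R-loops, among them MALAT1, NEAT1, BCL6 and MYC, held 0 of 45 merged regions. SNRPN, a locus that served as a negative control for R-loops in the study, was also on this list. It supplied 28 of the 45 merged regions, so the count is mostly that of 1 locus. A count of 0 of 45 allows a share of up to 6.67%, counted as 3 of 45. Immunoglobulin segments held 1 of 14 merged regions (7.14%), HLA genes 1 of 53 (1.89%) and the histone genes of chromosome 6 held 1 of 24 (4.17%). The snoRNA genes held 2 of 102 and the snRNA genes 11 of 252 (4.37%). Protein-coding genes as a whole held 8558 of 211625 (4.04%). Transfer RNA genes were not analysed here.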

How the data were processed

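The 8 DRIP-seq peak lists of Nalm-6 cells were used, with 2 for each of 4 groups, grouped by the genotype and treatment in the labels. Methods state that the authors used BWA-MEM for mapping to GRCh38, took out duplicates and mitochondrial DNA, and called narrow peaks in each library with MACS2. The deposited fold enrichment is a ratio to the local background at the summit, and the deposited −log10 p-value and q-value come from the same peak caller. Methods give a q of 0.05, but the deposited lists held only peaks with a q of 0.01 or lower. No reads or totals were used here, so depth is known only through the background pileup recovered from fold enrichment and −log10 p. The deposited junction counts of another cell line were not used.

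Peaks were merged where they overlapped or touched, and regions were chosen by the rule given above. Sequence features were read from the GRCh38 genome and classes from GENCODE v44. Peaks with a start site within 3 kb were called promoter peaks, and downstream reached 300 bp. A run is an unbroken stretch of purines or of pyrimidines, counted from 25 bases. Members and lists were chosen with earlier results of these data known. Regions were named by the lowest fold enrichment over the libraries that chose them (the 10 highest of each kind), and genes by the count and density of regions and by gene lists. Libraries were compared on peaks outside the regions with two-sided exact permutation tests of 4 against 4 libraries and Benjamini-Hochberg adjustment over 9 features. The tests and counting steps were tested on simulated data. Peaks were read with pandas, and the scripts ran in Python. The sequence and position of 1 region and the value of 1 gene are not reported here.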

Additional observations from a re-analysis of the deposited data

Results flagged for a closer look

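For peaks outside the chosen regions, the change of the median GC content with RNH1 had opposite signs in the 2 genotypes. The mean change was 1.34 percentage points in WT and -0.79 points in MT, with the same sign in both pairs of a genotype. The median width moved the other way, by -30 bp on average in WT and by 10 bp in MT, again in both pairs of each genotype. Neither difference between the genotypes was tested.

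The same rule was applied to contigs outside chromosomes 1 to 22, X and Y, which the comparisons above do not use. Of 540 merged regions there, 64 (11.9%) had peaks in both RNH1-treated libraries of a genotype and in 0 of the 4 untreated libraries.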

How the results depend on the processing

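The number of regions stayed within 1.5 times of 21465 when peaks were joined over gaps, when only peaks with a −log10 q of at least 3 entered or when untreated peaks within 1000 bp were barred. It was 11524 (10328 through MT) when RNH1-treated peaks needed a fold enrichment of at least 4. With only the same genotype's untreated lists required to lack a peak, the number through WT was 5229. Leaving out each library in turn gave 22197 to 41646 regions, 19905 to 40344 through MT and 2404 to 13574 through WT. Counts moved by over 1.5 times without either MT RNH1-treated library (39343 and 41646 regions without library 1 and 2), without untreated MT library 2 (35562), and, for the number through WT, without WT RNH1-treated library 1 (13574) or 2 (4494). Leaving out a library loosens the rule by its construction.

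The share in promoters was 4.81% within 1 kb of a start site and 12.98 to 15.32% without each library in turn. The share with a GC content of 50% or more was 6.03% with no untreated peak within 1000 bp, 4.43% with a fold enrichment of at least 4, and 4.16 to 10.7% without each library, the highest without WT RNH1-treated library 1. The share with a run of 25 or more, added after seeing the data, was 17.7% with a fold enrichment of at least 4, 15.8% with the same genotype's untreated lists, and 9.41 to 13.7% without each library.

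The labels give untreated and RNH1-treated libraries the same numbers, and the paper describes its samples with and without RNH1 as paired. Deviations of same-numbered libraries in log2 fold enrichment correlated at 0.015 in WT and 0.0012 in MT. The correlations cover 19532 and 101524 regions with a peak in all 4 lists of a genotype. They cannot show whether the libraries were paired. With the replicate block (exact sign flips over 4 pairs, smallest p 0.125) the difference in peaks with a run stayed 3.57 percentage points and that in purine excess 2.47 points, both with p = 0.125. Within WT and within MT, where exact p cannot go below 0.333, the run difference was 4.67 and 2.48 points and the purine excess 2.60 and 2.33 points. Without each library in turn the run difference was 3.09 to 4.10 points, and its exact p was 0.0571 without untreated WT library 1 or either untreated MT library. The promoter difference was -1.20 to -0.80 points, with exact p = 0.0286 without WT RNH1-treated library 2. The GC difference was 0.28 points over all libraries, -0.79 in MT alone and -0.49 to 1.05 without each library in turn, and it was negative without either untreated WT library (-0.49, -0.32) or either MT RNH1-treated library (-0.084, -0.019). The width difference was -10 bp, 10 bp in MT alone and -17.1 to 4.58 bp without each library, the latter without WT RNH1-treated library 1. Among 30000 peaks of the highest fold enrichment in each library, an alternative added later, the difference on chromosome X was 0.50 points with exact p = 0.0286. The cause of these changes was not tested.

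The shares over repeat-masked sequence were not run, since the genome file used here marks no repeats. The median background pileup was lowest in the WT RNH1-treated lists (2.17 and 2.66 reads), and what these lists missed for lack of depth was not tested.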
